A study of Mus musculus with 14 samples.

Results

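The interferon regulatory factors are a family of transcription factors, and 8 of its members were followed here in mouse liver: Irf1, Irf2, Irf3, Irf4, Irf5, Irf7, Irf8 and Irf9. They were chosen by their gene symbols and make up 8 of the 17656 genes in each table of liver RNA-seq values. All 8 were listed in every library. The study asked how loss of Ythdf1, a protein that binds mRNA carrying the m6A modification, changes the hepatitis that concanavalin A causes. Concanavalin A (ConA) is a plant lectin that activates T cells after injection into the blood. The 14 libraries were made from whole liver, 1 library per mouse, and the study's methods call the replicates biological. There were 3 wild-type mice given saline (WT saline), 3 mice labelled as Ythdf1 knockout given saline (KO saline), 4 wild-type mice given ConA (WT ConA) and 4 knockout mice given ConA (KO ConA). ConA was given once at 8 mg/kg, and the tissue of every group, saline included, is labelled 8 h. The study describes male mice on the C57BL/6 background, aged 6 to 10 weeks, and a knockout allele made with CRISPR/Cas9 that is carried in every tissue. The effects of Ythdf1 loss in hepatocytes and in leukocytes therefore cannot be told apart in these samples.

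Interferon regulatory factors bind DNA elements with repeated GAAA cores that lie before interferon-inducible genes. Irf1 is made in response to interferon gamma and activates genes of antigen processing and chemokines, while Irf2 binds the same elements and mostly counteracts Irf1. Irf3 and Irf7 wait in the cytoplasm until the kinases Tbk1 and Ikbke phosphorylate them, and then drive type I interferon genes. Irf9 is the DNA-binding part of the complex ISGF3, which carries the type I interferon signal to the nucleus. Irf5 acts below Toll-like receptors in myeloid cells, and Irf4 and Irf8 are mainly factors of lymphoid and myeloid cells.

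The promoter sequences that bear on this division are those of Irf1, Irf8 and Irf2, since only their windows among the 8 members held a match to the elements searched. The 250 bases before the start of each gene were taken from RefSeq (GRCm38.p6), which had windows for all 8 members, 11 windows in all. They were searched on both strands for TTCNNNGAA (a GAS, the element that Stat dimers bind, which reads the same on both strands) and for GAAANNGAAA (a core of the interferon-stimulated response element, ISRE). Matches are in capitals, the remaining bases in lower case, and each sequence runs 5′ to 3′.
Irf1, chr11:53769764-53770013, plus strand: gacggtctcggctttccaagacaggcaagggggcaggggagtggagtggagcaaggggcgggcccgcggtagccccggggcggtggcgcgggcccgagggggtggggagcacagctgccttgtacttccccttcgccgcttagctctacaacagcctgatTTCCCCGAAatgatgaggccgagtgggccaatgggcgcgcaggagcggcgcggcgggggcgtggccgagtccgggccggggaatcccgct
Irf8, chr8:120736108-120736357, plus strand: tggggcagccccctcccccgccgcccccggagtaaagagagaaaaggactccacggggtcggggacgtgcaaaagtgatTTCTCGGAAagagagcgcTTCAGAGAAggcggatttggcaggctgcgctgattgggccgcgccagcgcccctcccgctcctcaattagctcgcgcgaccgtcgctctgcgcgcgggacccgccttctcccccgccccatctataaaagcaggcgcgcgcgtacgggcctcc
Irf2, chr8:46739495-46739744, plus strand: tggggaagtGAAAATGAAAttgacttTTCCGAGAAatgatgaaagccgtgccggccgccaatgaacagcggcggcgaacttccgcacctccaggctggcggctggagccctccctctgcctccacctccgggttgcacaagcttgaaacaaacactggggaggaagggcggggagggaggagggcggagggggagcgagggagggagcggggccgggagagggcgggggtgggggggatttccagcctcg

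Irf1 held a single GAS, 90 to 82 bases before its start. Irf8 held a pair of GAS matches, at 171 to 163 and at 153 to 145 bases before its start. Irf2 held an ISRE match at 241 to 232 and a GAS match at 224 to 216 bases before its start, and the 2 do not overlap. Of all 27025 genes with such windows, 8.13% held a GAS match and 3.46% an ISRE match, so that matches of these letters are not rare. No match was found in the windows of Irf3, Irf4, Irf5, Irf7 and Irf9, which says only that these letters are absent there.

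The values are TPM, transcript amounts corrected for gene length and scaled so that each library sums to 1000000, so that levels can be compared between genes. Read numbers are not part of the tables, so the depth of a value is unknown and the spread between mice is its only error. Ythdf1 itself lay between 12.03 and 13.92 TPM in the WT saline livers and between 18.44 and 20.77 in KO saline livers. After ConA it lay between 18.74 and 25.63 TPM in WT livers and between 15.54 and 26.17 in KO livers. It was thus higher in KO than in WT saline livers, and the ConA groups overlapped, so the knockout is not visible in these values. Which part of the gene is deleted is not given in the sources used here, and the genotype label could not be checked. All 12 hepatocyte markers were present in every group, with summed levels of at least 85394 TPM. WT saline replicates 2 and 3 were closer to each other than any other pair of replicates (median log2 difference 0.0692, against 0.118 to 0.416 in the other 17 pairs), and results against WT saline are also given with these averaged and counted as 1 mouse. WT ConA replicate 3 and KO ConA replicate 3 had the lowest library scaling factors, 0.791 and 0.847, against 0.966 to 1.19 in the other livers.

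In saline livers the interferon regulatory factors formed 3 tiers. Irf3 was the most abundant, with 69.6 TPM ± 0.732 (SD, n = 3) in WT saline and 81.7 ± 6.84 (n = 3) in KO saline. Irf7, Irf2, Irf1 and Irf9 followed in WT saline with mean levels from 29.0 down to 23.15 TPM, and each of these neighbours overlapped the next over the 3 mice. Irf5 (4.77 TPM ± 1.88, n = 3) and Irf8 (2.49 ± 0.525, n = 3) were low, and Irf4 stood at 0.00 to 0.05 TPM. KO saline livers had the same tiers, with Irf2 at 31.55 TPM and Irf7 at 28.0 TPM, which overlapped, above Irf9 at 17.2 TPM and Irf1 at 16.3 TPM, which also overlapped.

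After ConA the order changed. Irf1 took the first place in both genotypes, ahead of Irf7, Irf8 and Irf3. In WT ConA the ranges of Irf8 and Irf3 overlapped, and so did those of Irf9 and Irf2, whereas in KO ConA those of Irf7 and Irf8 overlapped, and those of Irf9 and Irf2. Irf5 and Irf4 stayed the lowest.

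**Figure D1:**
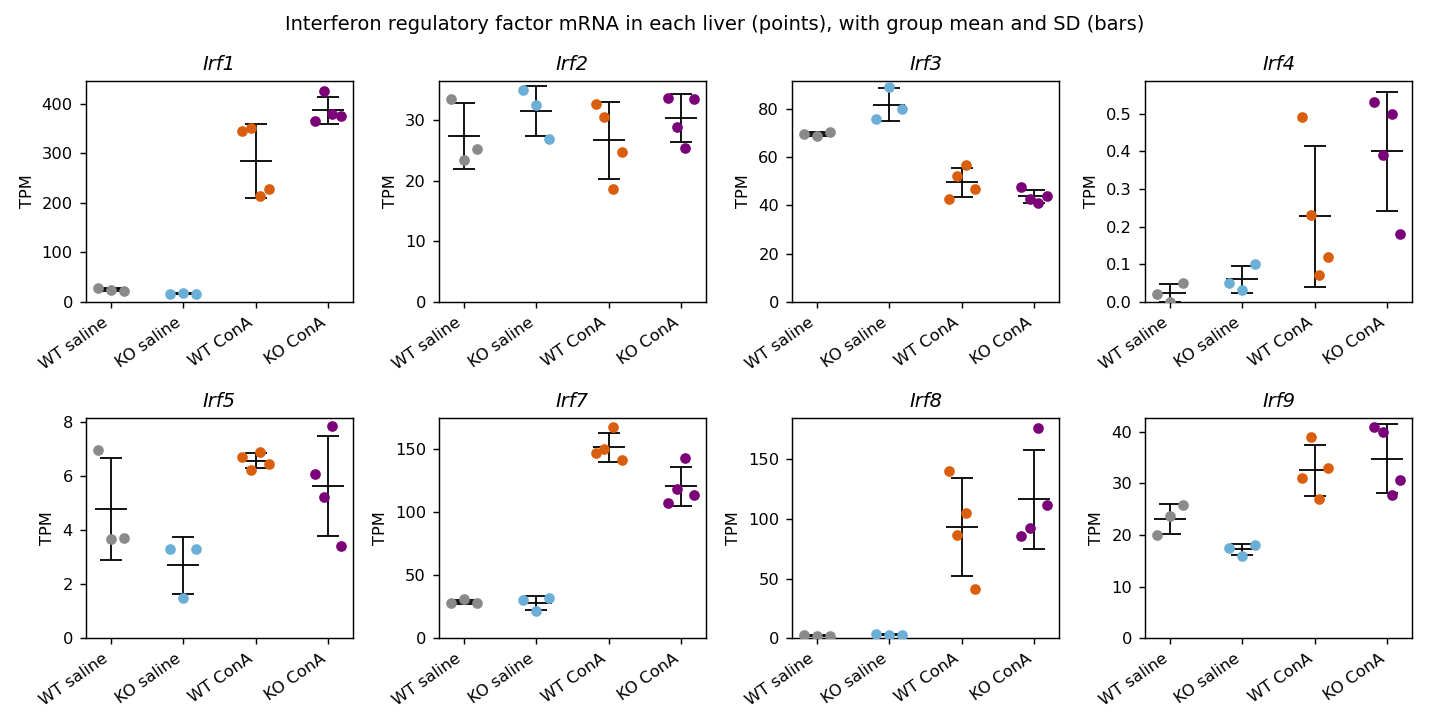
TPM of each of the 8 interferon regulatory factors (vertical axes, each starting at 0) in the 4 groups. Points are single livers, and the black bars give the group mean and SD. Irf1, Irf7 and Irf8 lie far above both saline groups after ConA, Irf3 lies below them, and Irf2 overlaps in all groups.

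Differences between groups were tested with limma on the log2(TPM + 1) scale, a gene counted as called where its p, adjusted by Benjamini-Hochberg, was under 0.05, and a log2 fold change is the difference of the group means on that scale, which understates changes of low genes. In WT ConA against WT saline 53.0% of the 10768 genes tested were called, 22.0% higher and 31.0% lower. Among the 7 interferon regulatory factors that passed the filter (Irf4 did not), 5 were called, with Irf1, Irf7, Irf8 and Irf9 higher and Irf3 lower. The KO livers had 64.6% of 10988 tested genes called after ConA, 33.9% higher and 30.7% lower. There 6 of the 7 members were called, with Irf5 joining those that were higher. Among the tested members, these 5 in WT and these 6 in KO were also those whose groups did not overlap, which was so for 58.0% and 64.3% of all genes tested.

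Irf1, the interferon gamma-induced activator, rose in every ConA liver. It had 27.85, 24.39 and 22.68 TPM in the WT saline livers and 344.83, 352.04, 213.02 and 227.36 TPM in the WT ConA livers. KO saline livers had 15.28, 17.95 and 15.70 TPM, and KO ConA livers had 365.89, 425.41, 378.42 and 376.08 TPM. The lowest ConA liver was thus several-fold above the highest saline liver. In TPM all 4 KO ConA livers were above all 4 WT ConA livers, which did not hold after division by the library scaling factors. The ratio of mean TPM was 11.4 in WT and 23.7 in KO. The log2 fold change was 3.42 in WT (95% interval 2.97 to 3.88, limma adjusted p 2.1e-06) and 4.49 in KO (4.24 to 4.73, adjusted p 4.36e-10).

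Irf2, which competes with Irf1 for the same elements, did not pass the test in either genotype. It had 33.58, 23.42 and 25.25 TPM in WT saline and 32.77, 30.64, 18.62 and 24.84 TPM in WT ConA, with a log2 fold change of -0.05 (95% interval -0.53 to 0.43, limma adjusted p 0.859). In KO saline it had 35.05, 32.59 and 27.01 TPM and in KO ConA 33.75, 28.90, 25.37 and 33.57 TPM, with a log2 fold change of -0.05 (-0.38 to 0.27, adjusted p 0.762). The groups overlapped, and the sign of both small values depended on single libraries and, in WT, on the scaling. The ratio of Irf1 to Irf2 in the same liver was between 0.8294 and 1.04 in WT saline livers and between 0.436 and 0.581 in KO saline livers. After ConA it lay between 9.15 and 11.5 in WT and between 10.8 and 14.9 in KO.

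Irf8, a factor of macrophages, dendritic cells and B cells that also answers to interferon gamma, had the largest ratio of the tested members. Its level was 3.02, 1.97 and 2.47 TPM in WT saline and 139.90, 86.44, 105.08 and 41.04 TPM in WT ConA. KO saline livers had 3.76, 2.87 and 2.77 TPM, and KO ConA livers had 85.80, 92.14, 175.94 and 111.24 TPM. Irf8 varied widely between mice of 1 group after ConA, and WT ConA replicate 4 was the lowest and KO ConA replicate 3 the highest, yet no ConA liver came near a saline liver. Mean TPM was 37.4 times as high in WT and 37.1 times as high in KO after ConA, with log2 fold changes of 4.64 (SE 0.35, limma adjusted p 8.87e-06) and 4.78 (SE 0.23, adjusted p 4.09e-08).

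Irf7, which amplifies the type I interferon response, rose in all 8 ConA livers. It had 28.23, 30.94 and 27.82 TPM in WT saline and 147.11, 150.14, 167.51 and 140.96 TPM in WT ConA, a log2 fold change of 2.34 (SE 0.12, limma adjusted p 8.88e-07). KO saline livers had 30.11, 21.80 and 32.22 TPM and KO ConA livers 107.53, 118.16, 142.94 and 113.97 TPM, a log2 fold change of 2.08 (SE 0.16, adjusted p 1.01e-06). The groups lay well apart in both genotypes, and the ratio of mean TPM was 5.22 in WT and 4.30 in KO.

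Irf3, the constitutive partner of Irf7, moved the other way. In WT saline it had 69.50, 68.87 and 70.33 TPM and in WT ConA 42.62, 52.22, 56.59 and 46.74 TPM, so that all 4 ConA livers were lower. In KO saline it had 75.78, 89.20 and 80.15 TPM and in KO ConA 47.51, 42.59, 41.06 and 43.72 TPM, again without overlap. Irf3 fell by 0.49 on the log2 scale in WT (limma adjusted p 0.0109) and by 0.89 in KO (adjusted p 5.01e-05). The WT call was lost in rescaled libraries (log2 fold change -0.39, adjusted p 0.10) and without WT saline replicate 3 (-0.48, adjusted p 0.0502), while the KO call held under every alternative run. The summed hepatocyte markers, given with the other cell types, were also lower in all ConA livers of each genotype, and their part in the values of Irf3 was not tested.

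Irf9, the DNA-binding subunit of ISGF3, had smaller changes. It had 19.99, 23.65 and 25.81 TPM in WT saline and 30.97, 38.95, 27.03 and 33.07 TPM in WT ConA, where the lowest ConA liver was only just above the highest saline liver. In KO saline it had 17.59, 16 and 18.14 TPM and in KO ConA 40.86, 40.01, 27.68 and 30.60 TPM, which was 2.02 times the mean TPM, without overlap. The log2 fold change was 0.47 in WT (95% interval 0.11 to 0.82, limma adjusted p 0.0312) and 0.95 in KO (0.60 to 1.3, adjusted p 0.000326). The WT call was lost with WT saline replicates 2 and 3 averaged (0.52, adjusted p 0.0633) and without any single one of WT saline replicates 1 and 2 and WT ConA replicates 1, 2 and 4 (adjusted p up to 0.128). The KO call was not lost under any alternative.

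Irf5, the myeloid factor below Toll-like receptors, was called only in KO, and the difference between genotypes in its response did not pass its test (log2 difference 0.41, 95% interval -0.36 to 1.17, limma adjusted p 0.485). Its levels were 6.94, 3.67 and 3.69 TPM in WT saline and 6.68, 6.23, 6.87 and 6.44 TPM in WT ConA, where WT saline replicate 1 overlapped the ConA livers and the log2 fold change was 0.44 (adjusted p 0.0953). Without that library it was 0.69 with an adjusted p of 0.00807. KO saline livers had 3.32, 1.49 and 3.30 TPM and KO ConA livers 6.08, 5.21, 7.83 and 3.42 TPM, a log2 fold change of 0.84 (adjusted p 0.0166) that was no longer called without KO saline replicate 2 (0.58, adjusted p 0.0887). Irf5 shares 1043 bases of its locus with Tnpo3, and Irf2 shares 7959 bases with the non-coding genes Gm31172 and Gm39170, and reads there may not be told apart, since strandedness is not given in the sources used here.

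Irf4, a factor of activated lymphocytes and plasma cells, stayed below 1 TPM in every library and was not tested. Its levels were 0.02, 0.00 and 0.05 TPM in WT saline, 0.05, 0.03 and 0.10 in KO saline, 0.49, 0.23, 0.07 and 0.12 in WT ConA and 0.53, 0.39, 0.50 and 0.18 in KO ConA. The ConA livers were above the saline livers of the same genotype, at levels where the unknown depth limits what can be read. With no filter on TPM the log2 fold change was 0.25 in WT (limma adjusted p 0.101) and 0.39 in KO (adjusted p 0.0064).

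**Figure D2:**
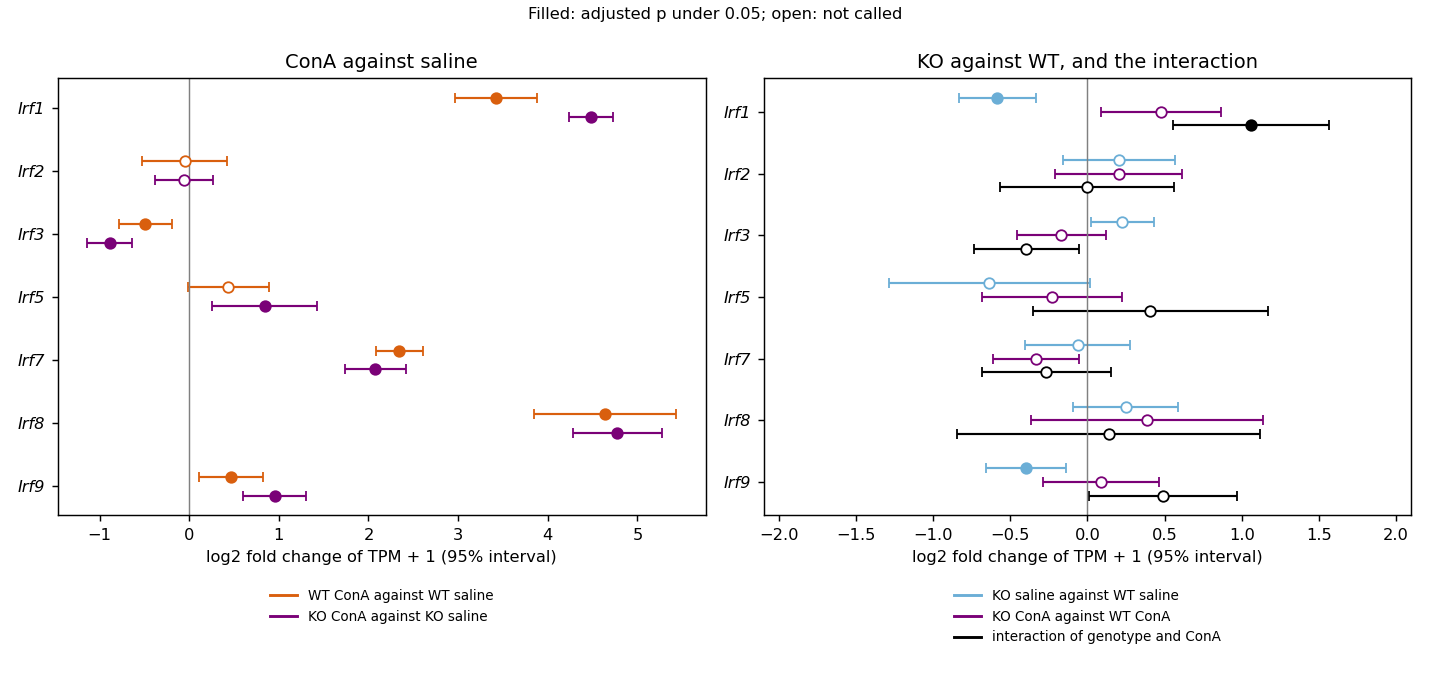
Log2 fold change of TPM + 1 (horizontal axis) with 95% interval for the 7 tested members. The left panel gives ConA against saline within each genotype, and the right panel gives KO against WT in saline and in ConA livers and the interaction of genotype and ConA. Filled points were called at an adjusted p under 0.05, and only Irf1 has a filled interaction point (1.06).

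The knockout was compared with WT in saline livers to see whether the family differed before hepatitis. There 19.2% of the 10459 genes tested were called, 6.30% higher and 12.9% lower, and 2 of the 7 members, Irf1 and Irf9, were called lower. Mean Irf1 was 16.3 TPM in KO saline and 25.0 TPM in WT saline, a log2 fold change of -0.58 (SE 0.11, limma adjusted p 0.0193). Mean Irf9 was 17.2 TPM against 23.15 TPM, a log2 fold change of -0.40 (SE 0.11, adjusted p 0.0454). The groups did not overlap for Irf1, Irf5 and Irf9, lower in KO, and Irf3, higher in KO, beside 42.3% of all genes tested. Neither call held with WT saline replicates 2 and 3 averaged (adjusted p 0.0825 for Irf1 and 0.157 for Irf9) or with all 14 libraries in the fit (limma adjusted p 0.09 and 0.211). Both were also lost without any single one of WT saline replicates 2 and 3 and KO saline replicate 1. Of 13 alternatives, the Irf1 call held under 8 and the Irf9 call under 5. The split of all calls, 659 higher and 1350 lower, became 744 and 771 in rescaled libraries, in which Irf9 was no longer called (-0.34, adjusted p 0.0826).

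The values of Irf3, Irf5, Irf8, Irf2 and Irf7 did not pass the test between saline livers. Irf3 had a log2 fold change of 0.23 (95% interval 0.02 to 0.43, limma adjusted p 0.105) and Irf5 of -0.64 (-1.29 to 0.02, adjusted p 0.136). The log2 fold change was 0.25 for Irf8 (-0.09 to 0.59), 0.20 for Irf2 (-0.16 to 0.57) and -0.06 for Irf7 (-0.40 to 0.28).

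Between the ConA-treated genotypes 0.428% of the 10519 genes tested were called, 0.342% higher and 0.0856% lower in KO, and 0 of the 7 members were, with limma. At an unadjusted p under 0.05 there were 2, Irf1 and Irf7, beside 16.7% of all genes tested. Irf1 had higher TPM in all 4 KO ConA livers. Its ratio of mean TPM was 1.36 and its log2 fold change 0.48 (95% interval 0.09 to 0.87, adjusted p 0.210). It was the 1 member whose groups did not overlap in TPM, beside 10.5% of all genes tested. That separation rested on the scaling. KO ConA replicate 1 had 365.89 TPM and a scaling factor of 1.19. WT ConA replicates 1 and 2 had 344.83 and 352.04 TPM and factors of 1.04 and 1.08. After division by these factors the groups overlapped, and the log2 fold change was 0.40 (limma adjusted p 0.271). Irf7 was lower in KO ConA, with a ratio of 0.797 and a log2 fold change of -0.33 (-0.61 to -0.05, adjusted p 0.222), and 3 of 4 KO ConA livers were below all WT ConA livers. The other log2 fold changes were 0.39 for Irf8 (-0.36 to 1.14), 0.20 for Irf2, 0.09 for Irf9, -0.17 for Irf3 and -0.23 for Irf5. The count of members stayed 0 under all 15 alternatives, and the split of all calls, 36 higher and 9 lower, became 12 and 13 in rescaled libraries.

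The interaction of genotype and ConA asks whether the response to ConA itself differed between genotypes. It was called for 4.78% of the 11327 genes tested, 2.64% higher and 2.14% lower, and for 1 of the 7 members, Irf1. The rise of Irf1 was larger in KO by 1.06 on the log2 scale (SE 0.24, 95% interval 0.56 to 1.57, limma adjusted p 0.0307). A lower mean in KO saline (-0.58) and a higher mean in KO ConA (0.48) both enter this value. The saline difference was not called under every alternative, and the ConA difference was not called. All genes had a median interaction of 0.14, which became 0.03 in rescaled libraries, where Irf1 had 0.92 (adjusted p 0.0433). The value of Irf1 was 0.92 to 1.18 over the 21 alternatives, but the call was lost with WT saline replicates 2 and 3 averaged (1.10, adjusted p 0.0955) and without any single one of WT saline replicates 2 and 3, KO saline replicates 1 and 2 and KO ConA replicates 2 and 4 (adjusted p 0.056 to 0.0957). Of the others, Irf3 (-0.40, p 0.0260, adjusted p 0.143) and Irf9 (0.49, p 0.0473, adjusted p 0.193) had an unadjusted limma p under 0.05, as had Irf1 and 25.3% of all genes tested, and the values of Irf5, Irf7, Irf8 and Irf2 were 0.41, -0.27, 0.14 and -0.00.

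Set against each other in 1 liver, the family changed in amount and in make-up. The summed TPM of the 8 members lay between 176.9 and 189 in WT saline livers and between 179 and 182 in KO saline livers, and it reached 521 to 745 after ConA in WT and 688 to 799.7 in KO. Irf3 made up between 36.7% and 39.5% of this sum in WT saline livers and between 41.9% and 49.0% in KO saline livers, but 5.72% to 9.51% after ConA in WT and 5.13% to 6.91% in KO. Irf1 made up between 12.7% and 14.7% in WT saline livers and between 8.44% and 9.87% in KO saline livers, and 35.8% to 49.1% after ConA in WT and 47.3% to 56.5% in KO. Irf3 thus led the family in each of the 6 saline livers and Irf1 in each of the 8 ConA livers. After ConA the share of Irf7 was 19.7% to 28.2% in WT livers but 15.6% to 17.9% in KO livers, without overlap, while that of Irf8 overlapped (7.88% to 18.8% and 12.2% to 22.0%). A share also falls where the other members rise. The TPM of Irf7 itself overlapped after ConA (from 140.96 in WT and up to 142.94 in KO) and was not called between the genotypes. These shares are a description of the sums, and no test was run on them.

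**Figure D3:**
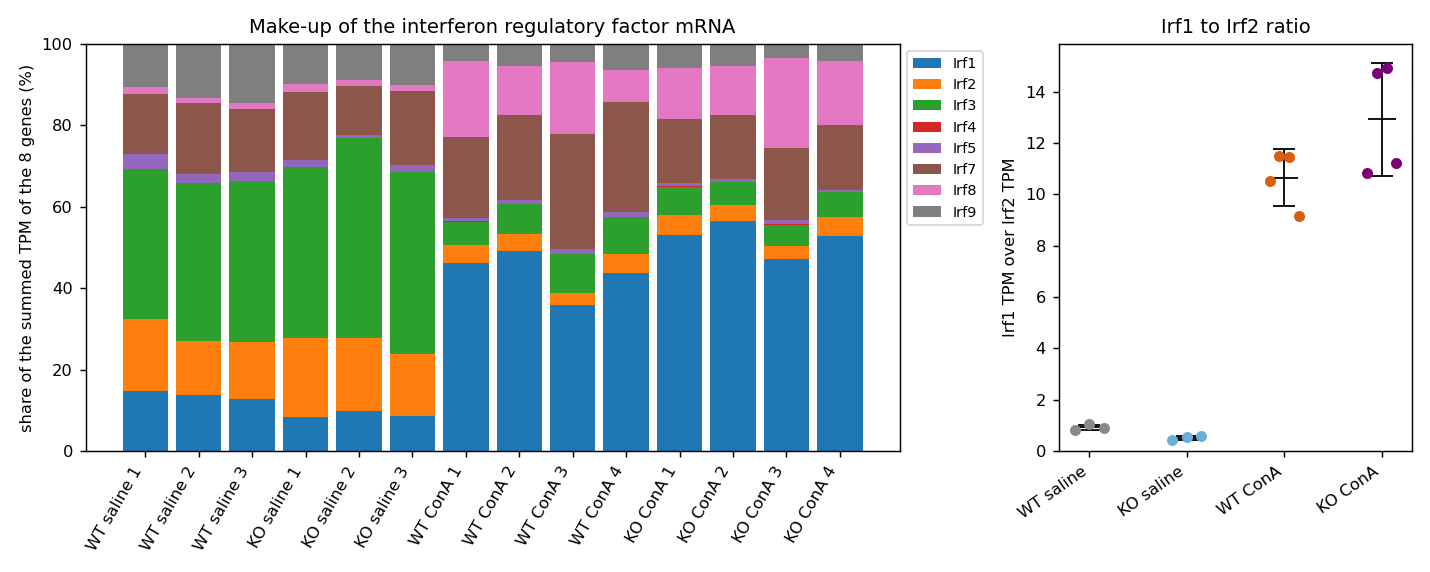
Left, the share of each member in the summed TPM of the 8 genes (vertical axis, %) for each liver. Right, the ratio of Irf1 TPM to Irf2 TPM by group, with points for livers and bars for mean and SD. The green Irf3 share of 36.7% to 49.0% in saline livers falls below 10% after ConA, and the ratio on the right rises from about 1 or less to 9.15 or more.

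The patterns of the members across the 14 livers were compared with those of all 11327 genes with 1 TPM or more in at least 3 livers, by Pearson correlation of log2(TPM + 1). Since the points share 4 groups, the values mostly reflect group means, and they are also given after the group means were subtracted. Closest to Irf1 were Serpina3f (0.996), a serine protease inhibitor gene, Fgb (0.996), the fibrinogen beta chain, and Tap1 (0.995), which carries peptides for antigen presentation. After group means were subtracted these were 0.53, 0.53 and 0.76. Closest to Irf8 were Socs1 (0.993, then 0.89), the inhibitor of Jak kinases, Tnfrsf23 (0.993, then 0.79) and the DNA exonuclease Trex1 (0.991, then 0.86). Socs1 lay between 0.48 and 0.82 TPM in WT saline and between 65.52 and 149.97 TPM in WT ConA.

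Closest to Irf7 were Bcl3 (0.994), a cofactor of NF-kB, Ifitm2 (0.988), an interferon-induced membrane protein, and Elf3 (0.987), and after group means were subtracted the correlations were 0.62, 0.46 and -0.04. Closest to Irf3 were Mrps36 (0.989, then 0.89), Stk11 (0.987, then 0.90), the kinase LKB1, and Abhd11 (0.986, then 0.84). Stk11 lay between 91.32 and 99.22 TPM in WT saline and between 49.05 and 64.54 TPM in WT ConA. Among the closest to Irf9 were Fbxo4 (0.975) and Dnajc3 (0.972), a chaperone of the endoplasmic reticulum. After group means were subtracted these were 0.88 and 0.95. The closest genes of Irf2 and Irf5 were less close, at 0.819 (Zc3h11a, then 0.87) and 0.856 (Ccne1, then 0.56). Among the members themselves the correlation over the 14 livers was 0.977 for Irf1 with Irf8 and -0.954 for Irf1 with Irf3, and 0.35 and -0.27 after group means were subtracted.

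The genes around the family were taken as 5 lists written from textbook knowledge. Of the interferons, receptors and Jak and Stat genes 11 of 14 in the files were tested. After ConA 4 were higher and 1 lower in WT, and 6 higher and 1 lower in KO. Of all genes tested 22.0% were called higher and 31.0% lower in WT, and 33.9% and 30.7% in KO. Stat2, the partner of Irf9, had 13.49 to 15.93 and 30.07 to 39.72 TPM in the WT groups (1.2, limma adjusted p 0.000102), and 15.53 to 22.03 and 17.91 to 34.57 TPM in the KO groups (0.51, adjusted p 0.0665). Ifng, interferon gamma itself, had at most 0.14 TPM in saline livers and passed the filter only through the ConA livers. After ConA it lay between 1.01 and 3.86 TPM in WT and between 5.02 and 12.14 TPM in KO livers. Neither KO ConA against WT ConA (log2 fold change 1.38, limma adjusted p 0.0674) nor the interaction (1.41, adjusted p 0.0503) was called for Ifng. Ifnar2, a chain of the type I interferon receptor, was the called gene that fell (-0.45 and -0.75). The WT count of 5 rested on WT ConA replicate 3, since it was 10 without that library, and 9 in rescaled libraries, where 9 were higher and 0 lower, so that Ifnar2 was not called there. Ifngr2, a chain of the interferon gamma receptor, was higher after ConA by 0.74 in WT and 1.88 in KO, and in saline livers it was lower in KO mice (-0.81, limma adjusted p 0.0155). Its response differed between genotypes by 1.14 (interaction, limma adjusted p 0.0185), the 1 call of this list in that test, and neither of these calls held with WT saline replicates 2 and 3 averaged (adjusted p 0.0825 and 0.0747) or without replicate 2 or replicate 3 of WT saline. The interaction call was also lost without replicate 1 or replicate 2 of KO saline, and 4 genes of the list were called in rescaled libraries, 3 higher and 1 lower.

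Of the sensors, adaptors and kinases that act on Irf3 and Irf7, 16 of 20 were tested. In WT ConA 9 were higher and 1 lower, and in KO ConA 12 higher and 1 lower. Among all genes tested 22.0% were called higher and 31.0% lower in WT, and 33.9% and 30.7% in KO. Sting1, called higher in both, did not pass the filter between saline livers and was tested only through the ConA livers. Ikbke lay between 3.21 and 5.1 TPM in saline and between 62.41 and 75.46 TPM in ConA livers of WT mice, and between 5.71 and 6.68 and between 51 and 63.98 TPM in those of KO mice. Its log2 fold change was 3.86 in WT and 2.92 in KO, a difference of -0.93 (interaction, limma adjusted p 0.0280) that was no longer called with WT saline replicates 2 and 3 averaged, nor without any single one of WT saline replicates 2 and 3, KO saline replicates 1 and 2 and KO ConA replicate 4. Zbp1, a nucleic acid sensor, lay between 7.19 and 9.02 TPM in WT saline and between 132.89 and 181.06 TPM in WT ConA (log2 fold change 4.12, and 4.32 in KO). Myd88, an adaptor of Toll-like receptors (2.06 and 2.16), and Tbk1 (1.34 and 1.79) were higher in both genotypes, and Tlr7 was the gene that was lower in both (-0.83 and -0.69). Of the partners and corepressors 5 of 11 tested were higher in WT and 6 of 11 in KO, with 0 lower. Batf, Batf2 and Batf3, among those called higher in both, did not pass the filter between saline livers. They were tested only through the ConA livers, and with the filter at 5 TPM the WT count was 3. Batf2, a partner of Irf1, lay between 0.24 and 0.28 TPM in WT saline and between 4.08 and 11.7 TPM in WT ConA (log2 fold changes 2.83 and 3.07), and Batf (1.18 and 1.27) and the repressor Bcl6 (1.01 and 1.17) were also higher in both. Of the corepressors of Irf2, Irf2bp1 was not called (0.11 and 0.22) and Irf2bp2 was called higher in KO (0.62 in WT, limma adjusted p 0.0536, and 0.85 in KO).

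Of 24 known target genes of Irf1, 21 were tested, and in each genotype 18 were higher and 2 lower. Casp4, Socs1 and Nos2, among these 18, did not pass the filter between saline livers. They were tested only through the ConA livers. Of all genes tested 22.0% were called higher and 31.0% lower in WT, and 33.9% and 30.7% in KO. The median log2 fold change of the 21 genes was 2.04 in WT and 2.44 in KO, against -0.07 and 0.07 over all genes tested. Cxcl9, a chemokine for activated T cells, was at most 10.28 TPM in WT saline livers, and after ConA it lay between 2487 and 4080 TPM in WT and between 3712 and 3949 TPM in KO livers. Gbp2, a guanylate-binding protein, was at most 3.92 TPM in WT saline livers, and after ConA it lay between 464 and 1141 TPM in WT and between 1056 and 1299.8 TPM in KO livers. The immunoproteasome subunit Psmb9 (3.13 and 2.73) and Cd274, which encodes PD-L1 (4.0 and 4.92), were also higher in both genotypes. The 2 lower genes were B2m, the light chain of MHC class I (-0.49 and -0.94), and Il15 (-1.49 and -0.85), and Casp1 was not called in either.

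Of 24 known targets of ISGF3, 22 were in the files and tested, and 20 were higher and 0 lower in each genotype. Oas3, among these 20, did not pass the filter between saline livers and was tested only through the ConA livers. Of all genes tested 22.0% were called higher and 31.0% lower in WT, and 33.9% and 30.7% in KO. The medians of the 22 genes were 1.44 in WT and 1.79 in KO. Isg15, the ubiquitin-like modifier, lay between 31.65 and 37.06 TPM in saline and between 544.82 and 756.63 TPM in ConA livers of WT mice, and between 42.84 and 57.4 and between 483.24 and 883.93 TPM in those of KO mice. Oasl2 (3.01 and 2.56) and Xaf1 (0.96 and 1.15) were higher in both genotypes. Oas2 was not called in either genotype, nor was Bst2 in KO (log2 fold change 0.28, limma adjusted p 0.0774). Between the ConA-treated genotypes 0 genes of the 5 lists were called, with 5, 2, 1, 5 and 1 at an unadjusted limma p under 0.05 in the order given (16.7% of all genes tested), and 3, 0, 0, 1 and 1 called when all 14 libraries entered the fit. Between the saline livers 10, 15, 8, 18 and 21 genes of the lists were tested, in the same order. Of these, 0, 1, 1, 1 and 1 were called higher in KO and 1, 1, 0, 1 and 3 lower. Among all genes tested 6.30% were called higher and 12.9% lower. With WT saline replicates 2 and 3 averaged, 0 were called in each list.

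**Figure D4:**
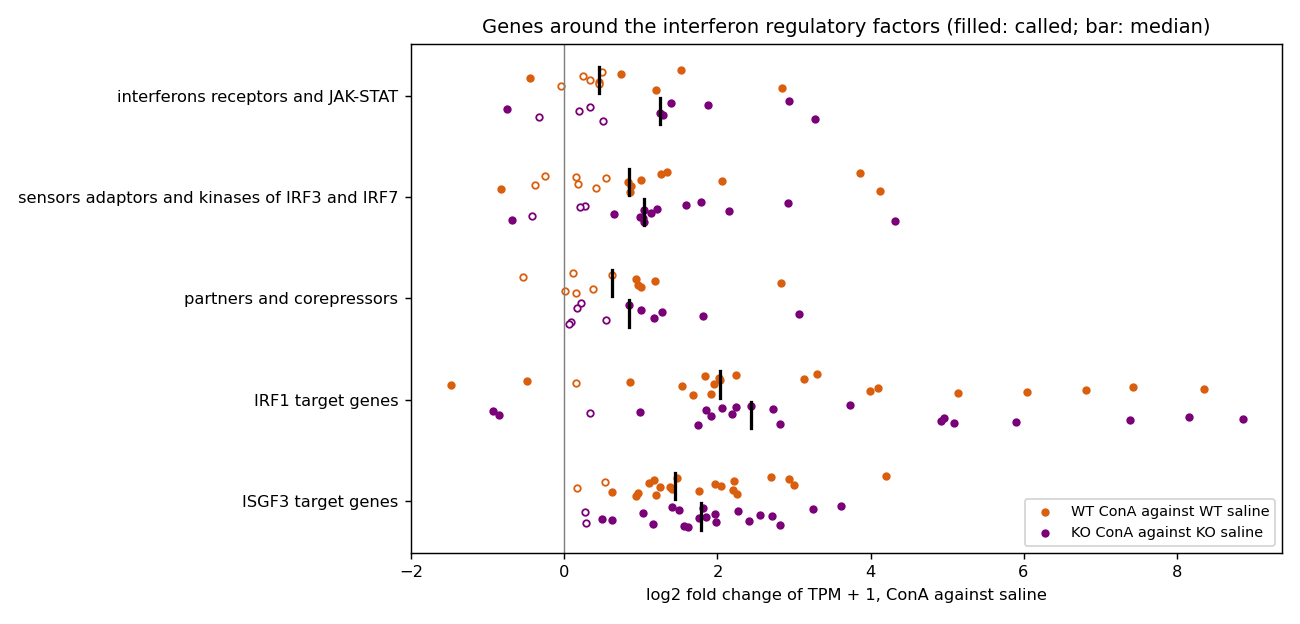
Log2 fold change of TPM + 1 for ConA against saline (horizontal axis) of every tested gene in the 5 lists, WT above and KO below in each list. Filled points were called, open points were not, and black bars mark the list medians, from 0.46 to 2.44.

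Bulk liver RNA cannot tell a change in the number of cells of a type from a change of RNA per cell, and the cell type markers moved with ConA. The 10 neutrophil markers summed to 5.44 to 11.8 TPM in saline livers, where Ngp and Mpo were at 0 in all KO saline livers, and reached between 328 and 580 TPM in WT and between 428 and 987 TPM in KO livers after ConA. Of these 10, 9 passed the filter in each genotype, some of them, such as Retnlg with at most 0.29 TPM in saline livers, only through the ConA livers. The 13 T and NK cell markers in the files summed to at most 5.46 TPM in saline livers, and after ConA to between 8.79 and 23.7 TPM in WT and between 15.6 and 29.9 TPM in KO livers. Of these 13, only 4 in WT and 5 in KO passed the filter, several of them only through the ConA livers. The 14 Kupffer cell and macrophage markers summed to between 177.3 and 288 TPM in WT saline livers and 85.7 and 192 in KO saline livers. After ConA the sums were between 71.1 and 200.05 TPM in WT livers and 112 and 201 in KO livers. Of these markers 2 were called higher and 9 lower in WT, and 3 higher and 4 lower in KO. Among all genes tested 22.0% were called higher and 31.0% lower in WT, and 33.9% and 30.7% in KO. The sums of 9 dendritic cell markers were 79.9 to 98.3, 62.9 to 81.4, 30.2 to 63.7 and 54.6 to 127 TPM in the same order, and 7 B cell and plasma cell markers stayed between 1.2 and 5.79 TPM. The 9 sinusoidal endothelial markers summed to at most 30.4 TPM in WT saline livers and at least 32.3 TPM in KO saline livers, without overlap, and to between 16.4 and 54.8 TPM after ConA. The 12 hepatocyte markers summed to between 139685 and 159079 TPM in WT saline livers and between 90792 and 113953 TPM in WT ConA livers, and to between 133890 and 153631 TPM and between 85394 and 98318 TPM in the KO groups. The sums were lower after ConA without overlap in both genotypes, as was Irf3. Of the 12 markers 7 were called lower and 2 higher in WT, and 9 lower and 2 higher in KO. The shares over all genes tested were 31.0% lower and 22.0% higher in WT, and 30.7% and 33.9% in KO. The part of these cell types in the values of the 8 members was not tested.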

How the data were processed

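Liver RNA of 14 mice was sequenced on a BGISEQ-500 (single-end, 50 bases). The authors deposited 1 table of TPM per mouse, summing to about 1000000 over 17656 genes. The submitters' processing notes name Bowtie2, RSEM 1.3.1 and GRCm38.p6, while the study's methods name STAR and HTSeq, so the steps before TPM are uncertain. Genes with 1 TPM or more in at least 3 libraries (4 for KO ConA against WT ConA) were tested on log2(TPM + 1) by limma 3.58.1 (R 4.3.3, functions lmFit and eBayes with a trend), with the libraries of the compared groups or, for the interaction, all 14. The procedure was tested on simulated data. Other settings tried were no filter and one at 5 TPM, a pseudocount of 0.1, rescaled libraries, all 14 libraries in the fit, a replicate block, WT saline replicates 2 and 3 averaged, and libraries left out. Members and lists were chosen with earlier results of these data known. Named were the members, the 3 genes of each list with the highest TPM, its 2 called genes with the largest WT change, and the 3 genes closest to each member. Ifngr2, Il15, Casp1, Psmb9, Cd274, Tbk1, Tlr7 and Oas2 were named after their values were seen, and some genes that the rule names are not reported here. Every 50-base stretch of each member's longest coding transcript (GENCODE vM21) was unique except in Irf9 (97.2%, shared with Gm38002 and Rnf31). Only transcripts read in their own direction were compared, so overlap with genes on the other strand is not covered.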

Additional observations from a re-analysis of the deposited data

Results flagged for a closer look

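The response of Irf1 to ConA differed between genotypes by the interaction term: it was larger in KO by 1.06 on the log2 scale (limma, Benjamini-Hochberg adjusted p 0.0307), with mean TPM of 25.0 in WT saline, 284 in WT ConA, 16.3 in KO saline and 386 in KO ConA. The call was lost when any 1 of 6 libraries was left out and when WT saline replicates 2 and 3 were averaged. By Dixon's test no value of the 8 genes stood apart in the 16 groups of 4 examined, groups of 3 not being examined. Irf8 in KO ConA replicate 3 was 175.94 TPM against at most 111.24 TPM in the other KO ConA livers.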

How the results depend on the processing

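Over the 530 values of members under alternatives, 480 kept their direction and their side of the threshold, 31 kept the direction without the call, 2 gained a call and 17 changed sign. The calls of Irf1, Irf7 and Irf8 in both ConA comparisons and of Irf3 and Irf9 in KO ConA against KO saline held under every alternative run. The number of members called in WT ConA against WT saline was 5, and 3 with the replicate block. In KO saline against WT saline it was 2, and 1 with no filter, 1 in rescaled libraries, 0 with all 14 libraries in the fit, 0 where WT saline replicates 2 and 3 were averaged, and 0 to 2 with 1 library left out. For the interaction it was 1, and 0 with those replicates averaged and 0 to 1 with 1 library left out. Where a mean of 2 libraries stood for 1 mouse, fewer samples entered, and otherwise the cause was not tested. KO ConA against KO saline gave 5 to 7 members, 7 being reached with no filter, when Irf4 was tested.

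Values that changed sign were not called. Irf2 in WT ConA against WT saline was 0.044 in rescaled libraries and -0.16 to 0.11 with 1 library left out. Irf2 in KO ConA against KO saline was -0.16 to 0.028 and Irf7 in KO saline against WT saline -0.17 to 0.10 with 1 library left out. In the interaction, Irf2 was 0.072 where WT saline replicates 2 and 3 were averaged and -0.16 to 0.10 with 1 library left out, and Irf8 was -0.21 to 0.38.

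The deviations of same-numbered replicates correlated by -0.19 to 0.41, highest for both ConA replicates 3, and no comparison had all of its pairs above 0.1, so the numbers were not taken as pairs. With the replicate block, in which ConA replicates 4 have no saline counterpart, Irf3 (adjusted p 0.0533) and Irf9 (adjusted p 0.0883) were not called in WT ConA against WT saline, and Irf5 was called in KO saline against WT saline (-0.64, adjusted p 0.0473). It changed no other call of the members. Of the gene lists, it moved the interferon, receptor and Jak and Stat calls in KO saline against WT saline from 1 to 4 and in the interaction from 1 to 2, and those of partners in KO saline against WT saline from 1 to 2. The tables carry no read numbers, so for low genes such as Irf4 the error of counting is unknown.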
